A study of Homo sapiens with 24 samples.

Results

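The keratin genes, vimentin (VIM) and nestin (NES) encode proteins of the intermediate filaments, and their mRNA was followed in SK-MES-1 cells over 48 h with and without TGFβ1. All protein-coding genes with a plain keratin symbol (KRT and a number, without keratin-associated proteins and pseudogenes) were taken, together with VIM and NES. This gave 57 genes, 55 of them keratins, of 19439 protein-coding genes with transcripts in the tables. SK-MES-1 is an established human cell line from a squamous cell carcinoma of the lung, used in the study as a single cellular model. Cells were serum-starved for 3 h and then either received 2 ng/ml TGFβ1 or were left untreated. Total RNA was sequenced at 0, 8, 24 and 48 h from 3 replicates per arm and time point. For the stimulation itself the study's methods also name the growth factor-depleted medium, listed with albumin and without serum. Where that medium stayed on the cells, time in culture and time in this medium cannot be told apart within an arm. The comparison of the arms at one time point asks what TGFβ1 changed, and the comparison of times within an arm asks what changed in culture with or without it.

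Intermediate filaments give a cell mechanical strength. Keratins form them in epithelial cells as obligate pairs of an acidic type I and a basic type II protein, so that KRT8 pairs with KRT18 in simple epithelia and KRT5 with KRT14 in the basal layer of stratified epithelia. KRT6, KRT16 and KRT17 are the keratins of wounded or stressed epithelium. Vimentin builds filaments without a partner in mesenchymal cells, nestin is assembled together with vimentin, and a shift from keratin to vimentin filaments is a textbook feature of the epithelial-to-mesenchymal transition that TGFβ can start.

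The libraries held 46613589 to 77964234 estimated counts, with a median of 54120879. Of 17453 genes tested, 0.0% were called between the arms at 0 h, where both arms had only been starved. Of the same 17453 genes, 800 had an unadjusted p under 0.05 there. A 4-valued code in the names of the deposited tables separated the untreated libraries of 0 and 8 h, the untreated libraries of 24 and 48 h, and the TGFβ1 libraries in the same way, with 6 libraries each. Its meaning is not given in the sources used here, and at each of the time points code and arm cannot be told apart. A change between 0 and 8 h, or between 24 and 48 h, is a comparison of libraries with the same code within an arm. Any change from 0 to 24 or 48 h within an arm compares libraries with different codes. Code and time cannot be told apart in it. In the counts per gene, TGFβ1 replicate 2 stood apart at 0 h and at 24 h. Its chi-square per gene against the other replicates was 56.0 and 37.3 at 0 h and 43.95 and 33.3 at 24 h, where the other pair gave 15.6 and 6.39, and the pairs of the other groups lay between 3.07 and 21.0. Untreated replicate 2 also stood apart at these times, by smaller values. It gave 21.0 and 13.7 against 8.54 for the other pair at 0 h, and 18.8 and 17.7 against 3.95 at 24 h. Calls between the arms that changed without one of these TGFβ1 libraries are given beside the result. Of the 8 squamous markers, TP63 lay between 7.69 and 37.5 TPM, PKP1 between 15.6 and 58.5 TPM, SOX2 between 0.372 and 8.17 TPM and DSC3 between 0.320 and 1.55 TPM. The other 4, the defining keratins KRT5, KRT6A and KRT14 and the desmoglein DSG3, reached at most 0.102 TPM in a library. The simple-epithelial KRT8 and KRT18 never fell below 374.6 TPM. EPCAM lay between 21.6 and 37.0 TPM and CDH1 between 0.969 and 5.74 TPM. Of the 5 fibroblast markers, COL1A2 reached at most 0.221 TPM, while DCN lay between 0.332 and 13.4 TPM, LUM between 3.03 and 24.1 TPM, PDGFRA between 3.17 and 11.3 TPM and PDGFRB between 1.90 and 21.5 TPM. Their part in the results was not tested. In such bulk samples, fewer cells of a type and less RNA per cell cannot be told apart.

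Most keratin genes were silent. Of the 57 members, 16 had at least 10 counts in at least 3 libraries and were tested, and 41 were not. These 41 reached at most 0.297 TPM (KRT13) and 14 counts (KRT32) in a library, and 9 of them had no count anywhere. The tested set held 4 of 5 simple keratins (KRT7, KRT8, KRT18 and KRT19, but not KRT20), 2 of 5 stress keratins (KRT16 and KRT17), 1 of 3 basal keratins (KRT15), 4 of 15 suprabasal and other epithelial keratins (KRT4, KRT10, KRT79 and KRT80), 3 of 26 hair and root sheath keratins (KRT81, KRT83 and KRT86), VIM and NES. The unclassed KRT222 was not tested. Of the 16, 12 had at least 10 counts in every library. KRT4, KRT16, KRT79 and KRT83 did not, and they entered the test only through the groups in which they were higher. The keratin genes lie in 2 clusters of GRCh38, with 27 genes at chr12:52168996-52952906 (9 tested) and 28 genes at chr17:40654665-41624842 (5 tested). VIM lies on chromosome 10 (17228241 to 17237593, plus strand) and NES on chromosome 1 (156668763 to 156677407, minus strand).

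Because these genes arose by duplication, part of their transcripts is identical, and the estimated counts rest on what differs. KRT16 (chromosome 17, 41609778 to 41615899) and KRT17 (41619442 to 41624842) are minus-strand neighbours whose coding sequences were 80.9% identical over 1283 aligned bases. Their aligned coding window of 60 bases with the most differences held 24 of them, printed in capitals from GENCODE release 44, at coding bases 465 to 524 of KRT16 and 366 to 425 of KRT17:
KRT16: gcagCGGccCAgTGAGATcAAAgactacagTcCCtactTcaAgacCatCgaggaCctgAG
KRT17: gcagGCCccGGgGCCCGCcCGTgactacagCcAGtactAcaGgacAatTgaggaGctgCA
The hair keratins KRT81 (chromosome 12, 52285913 to 52291534, minus strand) and KRT86 (52249300 to 52309163, plus strand) were closer, with 94.15% identity over 1454 bases and at most 14 differences in a window, at coding bases 1249 to 1308 of both:
KRT81: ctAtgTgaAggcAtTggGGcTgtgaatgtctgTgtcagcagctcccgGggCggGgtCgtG
KRT86: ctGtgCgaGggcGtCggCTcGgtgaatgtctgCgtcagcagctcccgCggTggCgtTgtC
Of all 31-base words in the main transcript of each gene, 4.01% of those of KRT7 and 0.16% of those of VIM also occurred in another member or a keratin pseudogene. The share was 34.9% for KRT17, 39.13% for KRT16, 53.13% for KRT81, 55.45% for KRT8 and 66.88% for KRT18. Levels of KRT8, KRT18 and the hair pair are therefore less certain than those of KRT7 and VIM. Among the pseudogenes, KRT8P12 reached 29.1 TPM and no other exceeded 2.01 TPM. The KRT86 gene spans KRT81 and overlaps the end of KRT7 (52232520 to 52252186, plus strand), and KRT8 (52897187 to 52949954, minus strand) overlaps the start of KRT18 (52948871 to 52952906, plus strand), and the strand setting of the libraries is not given in the sources used here.

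VIM was the most abundant member in 7 of the 8 groups. In the untreated arm it measured 1929, 1915 and 1733 TPM at 0 h and 769.5, 755 and 766 TPM at 48 h. In the TGFβ1 arm it measured 2032, 1886 and 2014 TPM at 0 h and 3563, 3575 and 3590 TPM at 48 h. At 8 h the TGFβ1 libraries (2652 to 2819 TPM) already lay above all untreated libraries (1443 to 1481 TPM). The log2 difference between the arms was 0.12 ± 0.05 (SE, n = 3 per arm) before stimulation, then 0.97 ± 0.05 (8 h, adjusted p = 9.6e-13), 1.53 ± 0.05 (24 h, adjusted p = 2e-16) and 2.25 ± 0.05 (48 h, adjusted p = 4e-19). At 48 h the TGFβ1 arm held 4.68 times the untreated level. Of this, VIM-201 made up 98.7 to 99.2% in every group.

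NES, the partner of vimentin, was lower at 48 h than at 0 h in both arms, and the log2 fall was smaller with TGFβ1. The untreated libraries held 61.0, 57.7 and 59.2 TPM at 0 h and 28.5, 27.9 and 29.2 TPM at 48 h. The TGFβ1 libraries held 61.1, 64.6 and 64.15 TPM at 0 h and 46.3, 46.0 and 48.2 TPM at 48 h. With TGFβ1 it first rose, to 75.4, 72.6 and 70.4 TPM at 8 h (log2 change 0.18 ± 0.04, adjusted p = 0.00034). The untreated libraries then held 62.4, 61.6 and 60.2 TPM (0.00 ± 0.04, adjusted p = 0.97). These changes were not shown to differ, since the change of the arm difference missed the threshold (0.18 ± 0.05, adjusted p = 0.024). The arms did not overlap at any time, 0 h included. The log2 difference was 0.12 ± 0.04 at 0 h (adjusted p = 0.81), and after stimulation 0.30 ± 0.04 (8 h, adjusted p = 1.9e-06), 0.64 ± 0.04 (24 h, adjusted p = 1.7e-11) and 0.73 ± 0.04 (48 h, adjusted p = 1.7e-12). NES thus differed from VIM in its course, since from 0 to 48 h in the TGFβ1 arm NES fell by 0.54 and VIM rose by 0.75 on the log2 scale. This difference in course was not itself tested.

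**Figure D1:**
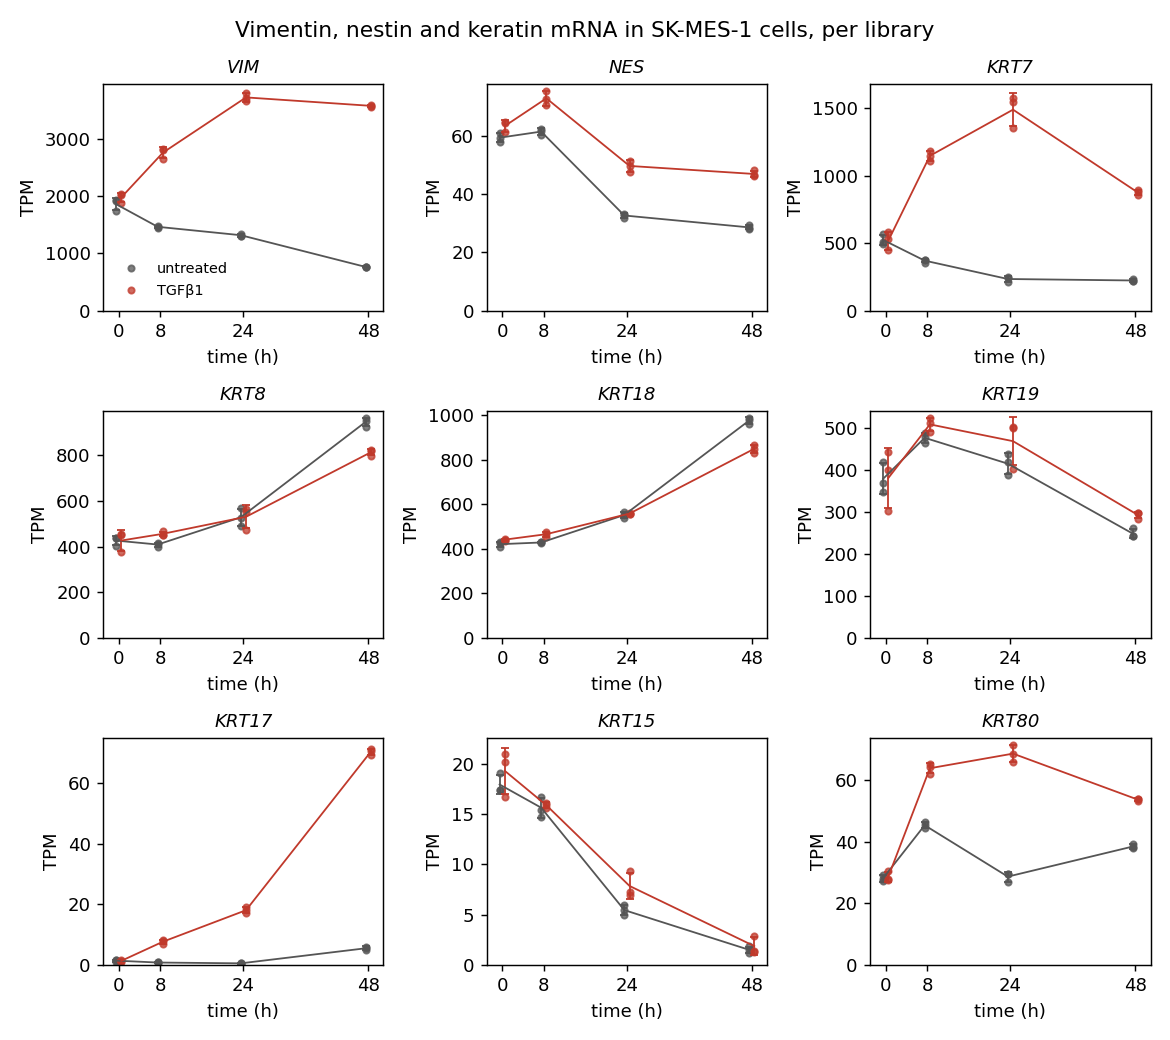
TPM of VIM, NES and 7 keratins against time in hours, with 1 point per library, lines through the group means and bars of 1 SD (n = 3). VIM, KRT7, KRT17 and KRT80 separate by arm from 8 h on, KRT8 and KRT18 rise in both arms, and KRT15 falls in both.

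KRT7, a type II keratin of simple and glandular epithelia, was the keratin with the largest absolute difference between the arms. At 0 h the untreated libraries held 565, 496 and 509 TPM and the TGFβ1 libraries 580, 447 and 527 TPM. At 8 h the untreated libraries were at 377, 378 and 356 TPM and the TGFβ1 libraries at 1185, 1146 and 1106 TPM. At 24 h they were at 249, 211 and 243 TPM and at 1572, 1349 and 1542 TPM. The arms overlapped at 0 h and at no later time. The level with TGFβ1 peaked among the times sampled at 24 h and was 878, 857 and 890 TPM at 48 h, against 234, 219 and 217 TPM without it. The log2 differences were 0.01 ± 0.10 at 0 h, 1.62 ± 0.09 at 8 h (adjusted p = 2.4e-11), 2.66 ± 0.10 at 24 h (adjusted p = 3e-15) and 1.97 ± 0.10 at 48 h (adjusted p = 5.1e-13). Both arms contributed. From 0 to 48 h KRT7 fell by 1.43 ± 0.10 without TGFβ1 and rose by 0.53 ± 0.10 with it on the log2 scale (adjusted p = 5.2e-11 and 4.7e-05). KRT7 therefore moved the same way as VIM in each arm over 0 to 48 h. KRT7-201 made up 90.9% of the gene's TPM in untreated cells and 91.2% in the TGFβ1 arm at 0 h. Its share was lower afterwards in both arms, with 80.9% and 75.2% at 8 h and 81.2% and 79.7% at 48 h.

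KRT8 and KRT18, the type II and type I partners of simple epithelium, rose in both arms. KRT8 measured 437, 404 and 437 TPM in untreated cells at 0 h and 963, 952 and 926 TPM at 48 h. With TGFβ1 it measured 455, 375 and 450 TPM at 0 h and 824, 819 and 798 TPM at 48 h. All 48 h libraries of an arm lay above all its 0 h libraries, and the log2 rise was 1.08 ± 0.08 without and 0.87 ± 0.08 with TGFβ1 (adjusted p = 3.1e-10 and 1.1e-08). The arms did not differ in KRT8 past the threshold at any time, with a log2 difference of 0.22 ± 0.09 at 8 h (adjusted p = 0.069) and -0.19 ± 0.08 at 48 h (adjusted p = 0.065), although the libraries did not overlap at either.

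KRT18 followed the same course. In untreated cells it measured 424, 429 and 406 TPM at 0 h and 977, 989 and 960 TPM at 48 h. With TGFβ1 it measured 445, 440 and 436 TPM at 0 h and 867, 849 and 830 TPM at 48 h. The log2 rise was 1.13 ± 0.04 without and 0.86 ± 0.04 with TGFβ1 (adjusted p = 1.3e-15 and 1e-13). Between the arms KRT18 was higher with TGFβ1 at 8 h by 0.17 ± 0.04 (adjusted p = 0.0038) and lower at 48 h by -0.19 ± 0.04 (adjusted p = 0.00054), and both differences were small. The 8 h call was lost when any 1 of 5 of the 6 libraries at that time was left out (adjusted p between 0.012 and 0.023: untreated replicates 1, 2 and 3, TGFβ1 replicates 1 and 2), and the 48 h difference turned to 0.16 when the 4 reference genes set the library size. The ratio of KRT8 to KRT18 TPM stayed between 0.951 and 1.02 in the group means. KRT8-201 held 92.1 to 95.5% of the KRT8 TPM, while KRT18-201 (52.9 to 71.4%) and KRT18-202 (27.4 to 46.1%) shared that of KRT18.

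KRT19, a type I keratin of simple epithelia without a tail domain, fell from 0 to 48 h in both arms. The untreated libraries held 420, 348 and 369 TPM at 0 h and 261, 242 and 242 TPM at 48 h. The TGFβ1 libraries held 442, 301 and 399 TPM at 0 h and 284, 297 and 297 TPM at 48 h. At 48 h the arms did not overlap, but the log2 difference of 0.27 ± 0.12 missed the threshold (adjusted p = 0.087). Within the arms KRT19 fell by 0.70 ± 0.12 without and by 0.46 ± 0.12 with TGFβ1 on the log2 scale (adjusted p = 3e-05 and 0.002), after a rise at 8 h that was called with TGFβ1 (0.42 ± 0.12, adjusted p = 0.0055) and not without (0.29 ± 0.12, adjusted p = 0.058). Without TGFβ1 0 h replicate 2 the rise at 8 h with TGFβ1 was 0.24 (adjusted p = 0.05), and it also missed the threshold without any 1 of the TGFβ1 8 h libraries. The fall to 48 h with TGFβ1 missed it without TGFβ1 0 h replicate 1 (-0.31, adjusted p = 0.021) or replicate 3 (-0.42, adjusted p = 0.011). These changes at 8 h were not shown to differ, since the change of the arm difference was 0.13 ± 0.16 (adjusted p = 0.73).

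KRT17, a type I stress keratin, had the largest fold difference among the 12 members measured in every library. At 0 h the untreated libraries held 0.948, 1.53 and 1.49 TPM and the TGFβ1 libraries 1.69, 0.911 and 1.16 TPM. At 24 h they held 0.497, 0.513 and 0.290 TPM and 18.0, 17.1 and 19.0 TPM. At 48 h they held 5.65, 5.87 and 4.72 TPM and 69.3, 71.4 and 70.7 TPM. The arms overlapped at 0 h and were apart at 8, 24 and 48 h. The log2 difference of -0.12 ± 0.24 at 0 h became 3.58 ± 0.22 (8 h, adjusted p = 4.4e-11), 5.46 ± 0.26 (24 h, adjusted p = 3.2e-13) and 3.76 ± 0.11 (48 h, adjusted p = 4e-17). With TGFβ1 the level went up at each time, to 56.1 times its 0 h level at 48 h. Without it KRT17 fell by 0.96 ± 0.26 by 8 h (adjusted p = 0.0067), a call lost without untreated 0 h replicate 2 or 3 or any 1 of the untreated 8 h libraries (adjusted p between 0.018 and 0.039). It then rose by 3.61 ± 0.27 between 24 and 48 h (adjusted p = 8e-10), so the largest fold between the arms came at 24 h, when the untreated level was lowest. KRT17-201 held 84.2 to 99.2% of the TPM, with the retained-intron KRT17-203 at up to 11.4% in groups of low level.

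KRT16, the other measured stress keratin, stayed far lower. It held 0.162, 0.153 and 0.160 TPM in untreated cells at 24 h and 1.43, 1.84 and 2.13 TPM with TGFβ1, without overlap at 8, 24 and 48 h. The untreated 24 h libraries had 5, 6 and 9 counts. The log2 differences were 2.84 ± 0.35 at 8 h, 3.66 ± 0.36 at 24 h and 2.86 ± 0.31 at 48 h (adjusted p = 1.8e-06, 4.5e-08 and 1.7e-07). At 0 h it was already 0.95 ± 0.54 (adjusted p = 1.0). As changes from that 0 h difference the values were 1.90 ± 0.64 (8 h, adjusted p = 0.059), 2.72 ± 0.65 (24 h, adjusted p = 0.0034) and 1.91 ± 0.62 (48 h, adjusted p = 0.025), and the F-test of these changes missed the threshold (adjusted p = 0.012). KRT16 counts amounted to 14.5% of KRT17 counts with TGFβ1 at 8 h, 9.55% at 24 h and 2.45% at 48 h. The part that words shared with KRT17 have in the KRT16 value was not tested. The type II stress keratins with which KRT16 and KRT17 pair in epidermis, KRT6A, KRT6B and KRT6C, were not tested for lack of counts.

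KRT15 was the basal keratin detected, a type I keratin that usually accompanies KRT5 in basal and stem cells. It measured 17.4, 17.4 and 19.1 TPM in untreated cells at 0 h and 1.20, 1.81 and 1.43 TPM at 48 h. With TGFβ1 it measured 21.0, 16.8 and 20.2 TPM at 0 h and 1.302, 1.40 and 2.85 TPM at 48 h. In each arm the 0 h and 48 h libraries were far apart, and KRT15 fell by 3.82 ± 0.15 without and by 3.59 ± 0.15 with TGFβ1 on the log2 scale (adjusted p = 3.4e-15 and 8.3e-15). Among the 12 members measured in every library this was the largest fall in either arm. The arms differed by 0.34 ± 0.11 at 24 h, which missed the threshold (adjusted p = 0.015). Leaving out untreated 24 h replicate 1, TGFβ1 0 h replicate 2 or TGFβ1 24 h replicate 3 brought it under the threshold (adjusted p = 0.0099, 0.0073 and 0.007). The retained-intron transcripts KRT15-205 (29.7 to 36.2% of TPM) and KRT15-209 (12.6 to 30.99%) held much of this level, beside the coding KRT15-203 (6.80 to 24.1%) and KRT15-204 (5.58 to 15.6%) and the retained-intron KRT15-207 (4.98 to 12.6%), so part of it is not mRNA for the annotated protein.

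KRT80, a type II keratin with a broad epithelial distribution, rose with TGFβ1 from 27.9, 27.5 and 30.3 TPM at 0 h to 71.5, 66.0 and 68.4 TPM at 24 h. The untreated libraries held 29.3, 27.1 and 27.96 TPM at 0 h and 29.5, 26.7 and 29.6 TPM at 24 h. The arms overlapped at 0 h only. The log2 differences were 0.55 ± 0.05 at 8 h, 1.29 ± 0.05 at 24 h and 0.50 ± 0.05 at 48 h (adjusted p = 2.8e-08, 1.8e-14 and 7.3e-08). KRT80 also rose without TGFβ1 by 8 h, to 45.3, 46.4 and 44.3 TPM. KRT80-202 (62.5 to 73.0%) and KRT80-201 (25.3 to 34.6%) shared the level in both arms.

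KRT79 and KRT4, type II keratins at under 1 TPM in all libraries, were called in the F-test in opposite directions. KRT79 held 0.0719, 0.0777 and 0.0197 TPM in untreated cells at 48 h and 0.659, 0.947 and 0.872 TPM with TGFβ1 (48 h comparison, adjusted p = 1.9e-07). KRT4, a keratin of mucosal stratified epithelia, held 0.413, 0.549 and 0.437 TPM in untreated cells at 48 h and 0.0254, 0.0388 and 0.185 TPM with TGFβ1 (48 h comparison, adjusted p = 1.3e-06). Neither pair of groups overlapped. The log2 difference of KRT4 was already -1.08 ± 0.57 at 0 h, which was not called. As a change from 0 h, its 48 h difference was -1.99 ± 0.69 and missed the threshold (adjusted p = 0.034). The F-test of these changes called KRT4 (adjusted p = 0.0056), with a mean change of -0.07 ± 0.62. At its highest KRT4 had 39 counts in a library and KRT79 had 82.8, and both entered the test only through the groups in which they were higher.

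KRT10, KRT81, KRT83 and KRT86 were not called between the arms at any time. KRT10, a type I keratin of the suprabasal epidermis, fell from 29.7, 34.1 and 27.5 TPM in untreated cells at 0 h to 21.8, 23.5 and 23.5 TPM at 48 h (log2 change -0.50 ± 0.09, adjusted p = 4.2e-05). With TGFβ1 it fell from 31.1, 34.9 and 27.9 TPM to 24.4, 24.2 and 25.4 TPM (log2 change -0.44 ± 0.09, adjusted p = 0.00018). The hair keratin KRT81 ranged from 71.5 to 128 TPM over all libraries and KRT86 from 18.5 to 33.4 TPM. KRT81 was at 118, 116 and 114 TPM in untreated cells at 48 h and at 123, 121 and 108 TPM with TGFβ1, and the arms overlapped at all times. KRT86 was at 29.3, 27.7 and 29.6 TPM and at 32.6, 33.4 and 30.99 TPM at 48 h, where the arms did not overlap (log2 difference 0.18 ± 0.09, adjusted p = 0.12).

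Counted together, members were called between the arms in the F-test over 8, 24 and 48 h in 9 of 16 cases, against 42.5% of all genes tested, and in 6 of the 12 members measured in every library. The 6 were VIM, NES, KRT7, KRT17, KRT80 and KRT18. The first 5 were higher with TGFβ1 at 8, 24 and 48 h, whereas KRT18 changed sign. At 8 h 8 of 16 were called, all higher (16.4% of all genes), and 6 of the 12. At 24 h 7 of 16 were called, all higher (29.3% of all genes), and 5 of the 12. At 48 h 9 of 16 were called, 7 higher and 2 lower (32.6% of all genes), and 6 of the 12, with KRT18 the lower one. Over the 12, the median log2 difference went from 0.20 (8 h) over 0.27 (24 h) to 0.25 (48 h), beside all-gene medians of -0.02, -0.02 and -0.01. At 0 h limma called 0 of 16 members, edgeR and DESeq2 also 0, and 2 (VIM and NES) had an unadjusted p under 0.05. The F-test share of 6 in 12 lay near the share of all genes. Without TGFβ1 0 h replicate 2 the F-test called 11 of 16, adding KRT8 (adjusted p = 0.0069) and KRT19 (adjusted p = 0.0099), and without TGFβ1 24 h replicate 2 it called 10, adding KRT8 (adjusted p = 0.0083).

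**Figure D2:**
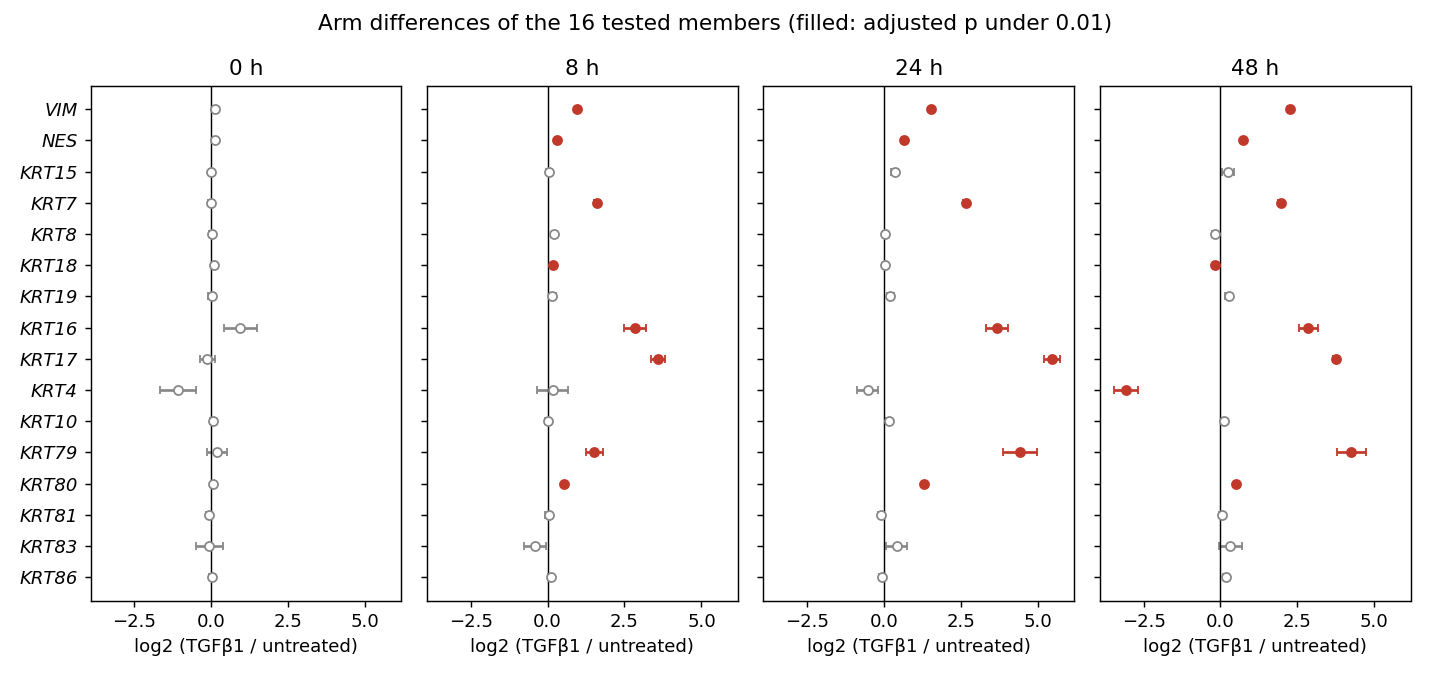
Log2 difference between the TGFβ1 and the untreated arm (x axis) for the 16 tested members (y axis) at 0, 8, 24 and 48 h, with bars of 1 SE and filled points where the adjusted p was under 0.01. No point is filled at 0 h, VIM, NES, KRT7, KRT16, KRT17, KRT79 and KRT80 lie to the right at 8, 24 and 48 h, and KRT8, KRT10, KRT15, KRT19 and KRT81 are unfilled at every time.

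Members changed with time in both arms. In untreated cells 5 of 16 were called between 0 and 8 h (1 higher, 4 lower, against 25.9% of all genes), 9 between 24 and 48 h (5 higher, 4 lower, against 28.4%) and 12 between 0 and 48 h (5 higher, 7 lower, against 55.1%). With TGFβ1 9 were called between 0 and 8 h (8 higher, 1 lower, against 33.8%), 10 between 24 and 48 h (5 higher, 5 lower, against 25.8%) and 12 between 0 and 48 h (8 higher, 4 lower, against 57.9%). Of the 12 members measured in every library, 5, 8 and 10 were called in these comparisons without TGFβ1, in the same order. With TGFβ1 the counts were 7, 10 and 10 of the 12. KRT8, KRT17, KRT18 and KRT80 were higher at 48 h than at 0 h in both arms, and KRT10, KRT15, KRT19 and NES were lower in both. VIM, KRT7 and the low KRT79 were lower without TGFβ1 and higher with it. The rise of KRT79 with TGFβ1 missed the threshold without TGFβ1 0 h replicate 2 (0.82, adjusted p = 0.02) or without TGFβ1 48 h replicate 2 or 3 (adjusted p = 0.013 for each). Without TGFβ1 24 h replicate 2, the changes of NES (-0.13, adjusted p = 0.018) and KRT81 (0.34, adjusted p = 0.013) between 24 and 48 h with TGFβ1 were not called. Without TGFβ1 0 h replicate 2, the rise of KRT79 by 8 h with TGFβ1 was not called (0.80, adjusted p = 0.031), and KRT81 was called lower at 8 h than at 0 h in both arms (adjusted p = 0.0042 without and 0.003 with TGFβ1).

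The change of the arm difference between 0 and 8 h, in which an offset between codes cancels, was called for 4 of 16 members, all higher (7.88% of all genes), namely KRT17 (3.71 ± 0.32), KRT7 (1.61 ± 0.13), VIM (0.85 ± 0.07) and KRT80 (0.50 ± 0.07) on the log2 scale. Between 24 and 48 h it was called for 6 of 16 members, 1 higher and 5 lower (9.11% of all genes), and for 5 of the 12 members measured in every library. VIM was the higher one (0.72 ± 0.07, adjusted p = 1.9e-07). KRT17 (-1.70 ± 0.28), KRT80 (-0.79 ± 0.07), KRT7 (-0.69 ± 0.14), KRT18 (-0.23 ± 0.06) and the low KRT4 (-2.54 ± 0.53) were the lower ones. With 1 library left out in turn 4 to 6 members were called, since KRT18 (adjusted p = 0.0084) missed the threshold in 16 of 24 such fits and KRT4 in 2, without TGFβ1 48 h replicate 1 or 2. As a ratio the arms drew further apart in VIM over the second day and closer together in KRT7, KRT17 and KRT80. VIM fell over this day without TGFβ1 (-0.84 ± 0.049, adjusted p = 1.8e-11). Its change with TGFβ1 was not called (-0.124 ± 0.045, adjusted p = 0.039). In TPM the gap of KRT17 widened, from means of 18.0 and 0.433 TPM with and without TGFβ1 at 24 h to 70.5 and 5.41 TPM at 48 h.

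The keratin sum rose in untreated cells only over the second day, while VIM was lower at each later time. Group means of the sum were 1972, 1897, 1903 and 2608 TPM at the 4 times in order, and those of VIM were 1859, 1464, 1317 and 764 TPM. With TGFβ1 the sum was 1985, 2815, 3274 and 3134 TPM and VIM 1978, 2758, 3723 and 3576 TPM, both highest at 24 h. The summed TPM of all member keratins went from 1972 ± 93.3 (SD, n = 3) at 0 h to 2608 ± 48.0 at 48 h without TGFβ1, and from 1985 ± 205 to 3134 ± 24.8 with it. Divided by VIM, the untreated libraries gave ratios between 0.989 and 1.12 at 0 h and between 3.34 and 3.46 at 48 h. The TGFβ1 libraries gave ratios between 0.933 and 1.06 at 0 h and between 0.867 and 0.887 at 48 h. The 48 h groups were far apart, with a log2 ratio difference of -1.96 ± 0.03 (SD of the difference), which is a description without a test. At 48 h the lower ratio with TGFβ1 came with a larger VIM level, since the keratin sum was itself higher than in untreated cells. From 0 to 48 h the mean ratio moved more without TGFβ1 (1.06 to 3.42) than with it (1.00 to 0.876). For KRT8 and KRT18 alone the ratio to VIM was 2.52 ± 0.05 without and 0.465 ± 0.011 with TGFβ1 at 48 h. For KRT7 it was 0.292 ± 0.011 and 0.245 ± 0.004. Earlier the KRT7 to VIM ratio had been higher with TGFβ1, at 0.415 against 0.253 without it at 8 h and 0.399 against 0.178 at 24 h.

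**Figure D3:**
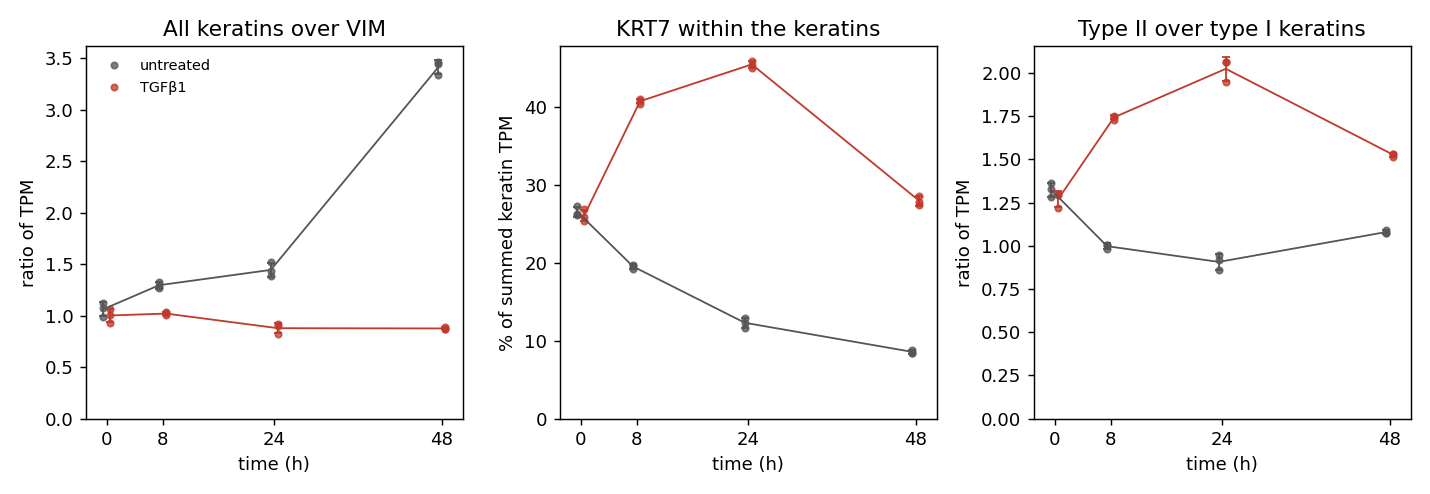
Ratio of the summed keratin TPM to VIM TPM, share of KRT7 in the summed keratin TPM (in %) and ratio of type II to type I keratin TPM, each against time in hours with 1 point per library, lines through group means and bars of 1 SD (n = 3). At 48 h the untreated keratin to VIM ratio lies between 3.34 and 3.46 and that with TGFβ1 between 0.867 and 0.887, and the KRT7 share with TGFβ1 is highest at 24 h.

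The make-up of the keratin pool shifted mainly within the simple keratins, which held 88.7 to 93.0% of the keratin TPM in the group means. The share of KRT7 fell from 26.5 ± 0.6% to 8.56 ± 0.23% in untreated cells between 0 and 48 h. With TGFβ1 it started at 26.0 ± 0.7%, stood at 45.4 ± 0.4% after 24 h and returned to 27.9 ± 0.6% by 48 h. KRT8 and KRT18 each rose to 36.3 and 37.4% of the pool in untreated cells at 48 h, against 26.0 and 27.1% with TGFβ1. The share of KRT19 was lower at 48 h than at 0 h, with 9.53 against 19.2% without TGFβ1 and 9.35 against 19.1% with it. The ratio of type II to type I keratin TPM went from 1.32 ± 0.04 to 1.08 ± 0.01 without TGFβ1 and from 1.27 ± 0.05 over 2.02 ± 0.07 at 24 h to 1.53 ± 0.01 with it. The stress keratins held 72.5 ± 1.4 TPM with TGFβ1 at 48 h and 5.69 ± 0.54 TPM without, the basal keratins 1.86 ± 0.89 and 1.55 ± 0.28 TPM, and the hair keratins 150 ± 9.1 and 145 ± 1.8 TPM. By ratio the stress keratins differed most between the arms at 48 h. In TPM the simple keratins differed more, with 2394 ± 46.3 TPM without and 2830 ± 20.2 TPM with TGFβ1.

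**Figure D4:**
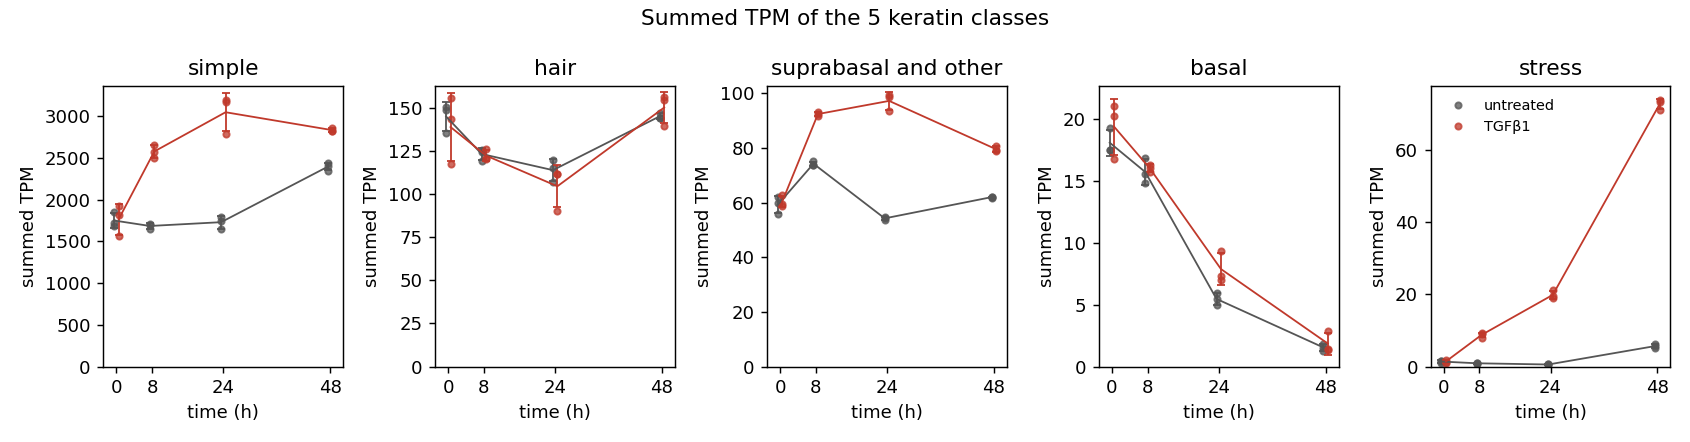
Summed TPM of the simple, hair, suprabasal and other, basal and stress keratins against time in hours, with 1 point per library, lines through group means and bars of 1 SD (n = 3), each panel on its own axis from 0. The stress keratins end at 72.5 TPM with TGFβ1 and 5.69 TPM without, and the basal keratins fall in both arms.

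Other intermediate filament genes moved in both directions. Of 13 genes, 9 were tested, 3 were higher with TGFβ1 by their mean difference over 8 to 48 h, 4 lower and 2 not called in the F-test, with a median of -0.07 (all genes -0.02). SYNM (synemin, a large partner of vimentin) was at 15.4 ± 0.3 TPM without and 20.1 ± 0.5 TPM with TGFβ1 at 48 h (mean log2 difference 0.33 ± 0.02, F-test adjusted p = 7.0e-10). INA (0.20 ± 0.02, adjusted p = 2.9e-07) and the lamin gene LMNB2 (0.26 ± 0.06, adjusted p = 0.0094) were also higher. The lens filament gene BFSP1 (-0.50 ± 0.03, adjusted p = 2.3e-12), GFAP of glia (-0.68 ± 0.06, adjusted p = 4.4e-08) and LMNB1 (-0.10 ± 0.03, adjusted p = 6.2e-05) were lower by this mean. LMNB1 changed sign, with differences of -0.22 at 8 h, -0.26 at 24 h and 0.18 at 48 h. At 48 h BFSP1 (-0.06 ± 0.05, adjusted p = 0.31), LMNB1 (adjusted p = 0.018) and LMNB2 (0.33 ± 0.11, adjusted p = 0.021) were not called.

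Of 16 genes for proteins that link or bind keratin filaments, all were tested, 6 were higher, 3 lower and 7 not called, with a median of 0.04. The desmosomal plakophilin PKP1 was at 16.1 ± 0.4 TPM without and 34.4 ± 0.8 TPM with TGFβ1 at 48 h (mean log2 difference 1.08 ± 0.03, adjusted p = 1.8e-16). The cytoskeletal linker MACF1 (0.60 ± 0.03, adjusted p = 2.5e-11) and desmoplakin DSP (0.40 ± 0.04, adjusted p = 1.5e-08), which anchors keratin at desmosomes, were higher as well. DSP was not called at 48 h (0.17 ± 0.06, adjusted p = 0.041). Periplakin PPL was lower, at 62.4 ± 3.1 and 27.7 ± 1.2 TPM at 48 h (-1.31 ± 0.04, adjusted p = 6.8e-15), and so were the plakophilins PKP2 (-0.41 ± 0.04, adjusted p = 8.8e-09) and PKP3 (-0.33 ± 0.08, adjusted p = 0.0037). The plakophilin genes therefore did not share a direction.

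Of 11 transcription factor genes with known roles in keratinocytes or in the transition to a mesenchymal state, 9 were tested, 4 were higher, 4 lower and 1 not called, with a median of 0.12. SNAI2 (1.34 ± 0.03, adjusted p = 1.8e-17) and SNAI1 (1.84 ± 0.06, adjusted p = 1.2e-15), repressors of epithelial genes, were higher at 8, 24 and 48 h. TP63, the regulator of basal squamous identity, had a positive mean (0.45 ± 0.04, adjusted p = 2.4e-12) made of differences of 0.80 at 8 h, 1.02 at 24 h and -0.49 at 48 h. SOX2 was at 5.23 ± 0.48 TPM without and 0.432 ± 0.056 TPM with TGFβ1 at 48 h (-2.62 ± 0.08, adjusted p = 8.2e-16). ELF3 (-0.65 ± 0.05, adjusted p = 1.8e-10) and TWIST1 (-0.54 ± 0.06, adjusted p = 3.8e-07) were lower too, so by this mean the factors named for mesenchymal cells did not move as one. TWIST1 was not called at 48 h (-0.32 ± 0.11, adjusted p = 0.025), and its difference at 0 h was -0.19.

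Promoter windows from 250 bases before to 50 after the gene start (RefSeq, GRCh38.p14) were found for 36 of the 57 members. The TATA box letters TATAAA, searched on both strands like the other motifs, occurred in 20 of the 36 (55.56%) and in 11.95% of 27305 promoters. The letters CAGACA, part of many SMAD sites, occurred in 22.22% against 16.83%, the E-box CAGGTG in 22.22% against 20.6%, and the AP-1 letters TGANTCA in none of the 36 against 7.76%. Of the tested members only KRT4, KRT8, KRT10, KRT79, NES and VIM had an entry. Among their windows only that of KRT10 held TATAAA, so the share above comes mostly from keratins that were not tested. The window of VIM begins from a start 1037 bases upstream of that of VIM-201, and that of KRT8 from one 19851 bases upstream of KRT8-201, so these 2 windows are not those of the transcripts measured.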

How the data were processed

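SK-MES-1 cells were sequenced by the authors on an Illumina HiSeq as 24 libraries (8 groups of 3 replicates). Per the labels and the study's methods, the authors quantified the reads with kallisto 0.43.0 against GRCh38 transcripts (Ensembl release 79). The deposited estimated counts are kallisto's raw read estimates for each transcript, which need not be whole. The deposited TPM values correct them for effective transcript length and give every library the same total. The strand setting is not given in the sources used here.

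Transcripts were assigned to genes by Ensembl identifier with GENCODE release 44. Of 173259 transcripts, 17741 had no match and were left out, and 94.82 to 95.18% of the counts of a library were kept. Counts and TPM were summed per gene. Counts were then rounded, and the 17453 genes with at least 10 counts in at least 3 libraries were tested with limma 3.58.1 (voom weights, TMM factors from edgeR 4.0.16, 1 mean per group over all libraries). A member was called at an adjusted p under 0.01 (Benjamini-Hochberg over all genes tested). The F-test covers the arm differences at 8, 24 and 48 h together. The test was tried on simulated data first. Replicates are lettered a to c in the labels and numbered 1 to 3 here in that order. Nothing states whether a letter ties libraries together. Of 12 correlations of same-numbered libraries, 4 exceeded 0.1. The highest were those of replicate 2 at 24 h (0.301) and at 0 h (0.296). The p-values therefore measure the spread between these dishes.

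Alternatives were edgeR (quasi-likelihood), DESeq2 1.42.0, limma-trend on log2 TPM with a pseudocount of 1 or 0.1, median-ratio factors, upper-quartile factors, library totals, 4 qRT-PCR reference genes as library size, length-scaled counts, other count filters, the libraries of the compared groups alone, a replicate block, the change from 0 h, unmatched transcripts kept, a threshold of 0.05, and omission of 1 library at a time (24 fits). The members, gene classes and further gene lists were chosen with earlier results of these data known. Members that reached a group mean of 10 TPM are described in full, the other tested members are named where the F-test called them, and of each further list the 3 rising and 3 falling genes of lowest F-test p are named. Statistics were run in R 4.3.3, and tables and plots were made in Python 3.11.15 (matplotlib 3.10.9, numpy 2.4.6, pandas 2.3.3).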

Additional observations from a re-analysis of the deposited data

Results flagged for a closer look

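The arm difference of 4 members changed between 0 and 8 h by a test of that change itself (limma, adjusted p under 0.01): KRT17 by 3.71, KRT7 by 1.61, VIM by 0.85 and KRT80 by 0.50 on the log2 scale. The arm difference of 6 members changed between 24 and 48 h by the same test. It grew for VIM (0.72) and moved down for KRT17 (-1.70), KRT80 (-0.79), KRT7 (-0.69), KRT18 (-0.23) and KRT4 (-2.54). VIM fell without TGFβ1 over this time (-0.84, adjusted p = 1.8e-11), and its change with TGFβ1 was not called (-0.124, adjusted p = 0.039). For KRT18 the move took a positive difference at 24 h (0.04 ± 0.04) to a negative one at 48 h, and KRT4 rests on at most 39 counts per library.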

How the results depend on the processing

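The 4 reference genes as library size took the median difference of all genes from -0.02 to 0.25 in the F-test and to 0.34 at both late times. With them 15 members were called in the F-test, 13 at 24 h and 14 at 48 h. Of all 17453 genes, 11187, 9282 and 9457 were then called, in the same order. The difference turned to 0.16 for KRT18 at 48 h (adjusted p = 0.00027) and to 0.28 for KRT86 at 24 h (adjusted p = 0.0022). The cause of these shifts was not tested. Replacing the arm difference by its change from 0 h left 4 members at 8 h (1376 of all genes), without KRT16, KRT18, KRT79 and NES. Length-scaled counts left 3 members between 0 and 8 h in untreated cells, and the libraries of the compared groups alone left 5 with TGFβ1. The cause was not tested for these counts either, beyond the smaller number of libraries in the last. KRT18 at 8 h also lost its call with library totals (0.09, adjusted p = 0.082) and upper-quartile factors (0.13, adjusted p = 0.021), and KRT8 at 48 h gained one with library totals (-0.28, adjusted p = 0.0059). Every other count of members called stayed within 1.5 times its value in the alternatives run, among them edgeR and DESeq2. The replicate block gave 9 members in the F-test, 8 at 8 h, 8 at 24 h and 9 at 48 h. Of all genes it called 8092, 3198, 5657 and 6226, in the same order. The added member at 24 h was KRT15 (adjusted p = 0.0096). With each library left out in turn, the F-test called 9 to 11 members, the 8 h and 24 h comparisons 7 to 8 each the 48 h comparison 9 and the change of the arm difference from 24 to 48 h 4 to 6, and the log2 keratin to VIM ratio difference lay between -1.98 and -1.95. VIM, KRT7, KRT17 and KRT80 kept direction and call at 8, 24 and 48 h in all alternatives. Depth limits KRT4, KRT16, KRT79, KRT83 and the 41 untested keratins.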
